A study of Homo sapiens with 4 samples.

Results

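The human mitochondrial genome contributed 37 of the 24014 genes in the table of read counts, chosen as every row whose chromosome is listed as MT: 13 protein-coding genes, 2 rRNAs and 22 tRNAs. The cells were SK-N-SH, an established human neuroblastoma line whose cultures hold adrenergic, neuroblast-like cells and mesenchymal, substrate-adherent cells, and were sequenced to ask which transcripts differ when the long non-coding RNA AP1AR-DT is raised. In 2 libraries (control) the wild-type cells carried an empty lentiviral vector without insert, and in the other 2 (AP1AR-DT_OE) they carried a recombinant lentivirus with AP1AR-DT. Both groups were therefore lentivirus-treated cells of a single line, and the labels do not say whether libraries came from separate infections. The p-values below then measure only the spread between these libraries, which may be technical. The labels of AP1AR-DT_OE 2 give the name of the RNA a different ending in genotype and treatment than in the title, which was followed. Whether the other ending means another RNA is not given.

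Mitochondrial DNA is a small circular genome present in many copies per cell. It is transcribed from both strands into long precursors, in which tRNAs lie between most mRNAs and rRNAs and mark the places where the precursor is cut. Its mRNAs encode core subunits of respiratory complexes I, III and IV and of ATP synthase, the rRNAs build the mitochondrial ribosome, and the tRNAs translate the mRNAs. MT-ND6 is the only mRNA encoded on the strand opposite to the others, and its RNA is known to lack a stable poly(A) tail, as tRNAs do. The library kit named in the labels selects poly(A) RNA and does not mark strand. Reads from a gene and from RNA of the opposite strand could therefore not be told apart, nor could reads from a released tRNA and from a precursor that still holds it.

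All 37 genes lie at the same positions in the deposited table (GRCh38 coordinates) and in the GENCODE annotation of the GRCh37 mitochondrial chromosome, of 16569 bases, from which the sequences below were read. The mitochondrial sequence used by the authors in the alignment is not given in the sources used here, and more than one has been distributed with hg19. Its part in the counts, above all at gene ends and in the short tRNAs, was not tested. The 6 tRNA genes with the highest counts are shown because they hold most of the tRNA reads, 5 of them on the minus strand. Each is printed on its coding strand, 5′ to 3′, with T for U and with the anticodon in capitals. MT-TY (tyrosine, chrM:5826-5891), MT-TC (cysteine, chrM:5761-5826), MT-TN (asparagine, chrM:5657-5729) and MT-TA (alanine, chrM:5587-5655) lie side by side between MT-ND2 and MT-CO1. MT-TS1 (serine, chrM:7446-7514) follows MT-CO1, and MT-TL1 (leucine, chrM:3230-3304, plus strand) follows MT-RNR2.
MT-TY: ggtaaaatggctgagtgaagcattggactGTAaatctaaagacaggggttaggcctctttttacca
MT-TC: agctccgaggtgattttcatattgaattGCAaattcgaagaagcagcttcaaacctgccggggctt
MT-TN: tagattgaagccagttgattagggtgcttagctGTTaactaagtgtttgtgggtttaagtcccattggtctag
MT-TS1: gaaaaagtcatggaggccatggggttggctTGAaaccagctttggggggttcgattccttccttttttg
MT-TA: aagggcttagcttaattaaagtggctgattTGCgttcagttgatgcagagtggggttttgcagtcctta
MT-TL1: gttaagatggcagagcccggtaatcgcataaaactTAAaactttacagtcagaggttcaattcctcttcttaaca

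Several neighbouring genes share bases, and the reads over these bases cannot be assigned to one of them. The start of MT-ATP6 lies within MT-ATP8 (46 shared bases, chrM:8527-8572), and the start of MT-ND4 within MT-ND4L (7 shared bases, chrM:10760-10766). MT-ND5 and MT-ND6 run towards each other on opposite strands and end on adjacent bases. These 3 junctions are shown on the plus strand with some flanking sequence, with capitals for the shared bases in the first 2 and for the last 3 bases of each gene (chrM:14146-14151) in the third. The other overlaps were 3 bases between MT-TI and MT-TQ, 1 base between MT-TC and MT-TY, and 1 base between MT-ATP6 and MT-CO3.
MT-ATP8/MT-ATP6 (chrM:8517-8582): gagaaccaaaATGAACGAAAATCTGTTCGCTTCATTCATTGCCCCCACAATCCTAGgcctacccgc
MT-ND4L/MT-ND4 (chrM:10745-10781): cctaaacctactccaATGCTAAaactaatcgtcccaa
MT-ND5/MT-ND6 (chrM:14119-14178): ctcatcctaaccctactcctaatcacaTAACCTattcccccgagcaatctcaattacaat

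The libraries held 21988065 to 26184599 counts. AP1AR-DT itself, listed as RP11-73K9.2 and read as a check of the labels, had 3 and 18 counts in the controls against 680 and 1065 in AP1AR-DT_OE (Log2FC = 6.63, SE = 0.64). The adrenergic markers summed to 20676 to 25407 normalized read counts per library and the mesenchymal markers to 109534 to 139686, so markers of both states were detected, and 0 of the 12 measured markers was called at an adjusted p under 0.05 (DESeq2), where 0.137% of all genes were called. TH, also listed as an adrenergic marker, was not measured. The largest difference among these markers was that of PRRX1, a mesenchymal transcription factor. It had 2432 and 14724 counts in the controls against 1131 and 2263 in AP1AR-DT_OE (Log2FC = -2.02, SE = 0.61, DESeq2 adjusted p = 0.43). Its unadjusted p was 0.000987 (DESeq2), and no other of these markers had one under 0.05. Across 13284 genes, the ratio of replicate 2 over replicate 1 was lower for transcripts of higher GC content in both groups (Spearman's rho = -0.77 in control and -0.65 in AP1AR-DT_OE), so values within each replicate number are given beside the pooled ones.

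The mitochondrial genes differed widely in level. Levels between genes are compared after scaling for length, as counts per kilobase of gene in 1000000 counts of the library, and are given as the mean ± SD over the 4 libraries. MT-ATP6 (ENSG00000198899, chrM:8527-9207), the ATP synthase subunit of the proton channel, was highest at 8504 ± 453, with values from 8018 to 8919 that all lay above those of every other gene. MT-CO1 (ENSG00000198804, chrM:5904-7445; 7332 ± 491) and MT-CO2 (7091 ± 208), which carry the redox centres of complex IV, followed and overlapped each other in range. The third mitochondrial subunit of that complex, MT-CO3 (5724 ± 215), overlapped with MT-ND4 of complex I (5774 ± 590). Complex I subunits MT-ND2 (4645 ± 228) and MT-ND1 (4603 ± 437) could likewise not be ordered. MT-CYB, the cytochrome b of complex III, came next at 4047 ± 226.

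The 2 short reading frames that overlap with a longer one had lower length-scaled counts than their partners. How the counting of reads over such short, overlapping frames entered these gaps was not tested, so they are not differences in RNA level. MT-ATP8, a small subunit of ATP synthase, was at 3311 ± 267, and MT-ATP6 exceeded it 2.43- to 2.64-fold in the 4 libraries. MT-ND4L was at 2518 ± 384, and MT-ND4 exceeded it 2.12- to 2.41-fold. The remaining complex I subunits were the lowest of the protein-coding genes, with MT-ND3 at 2087 ± 135, MT-ND5 (ENSG00000198786, chrM:12337-14148) at 1442 ± 454 and MT-ND6 (ENSG00000198695, chrM:14149-14673, minus strand) at 1390.05 ± 559. MT-ND5 and MT-ND6 had the widest relative spread of the protein-coding genes and overlapped fully with each other, and the ratio of MT-ND5 over MT-ND6 lay between 0.906 and 1.198. Without strand information, counts at MT-ND6 may hold reads from RNA of the opposite strand, and their part was not tested.

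**Figure D1:**
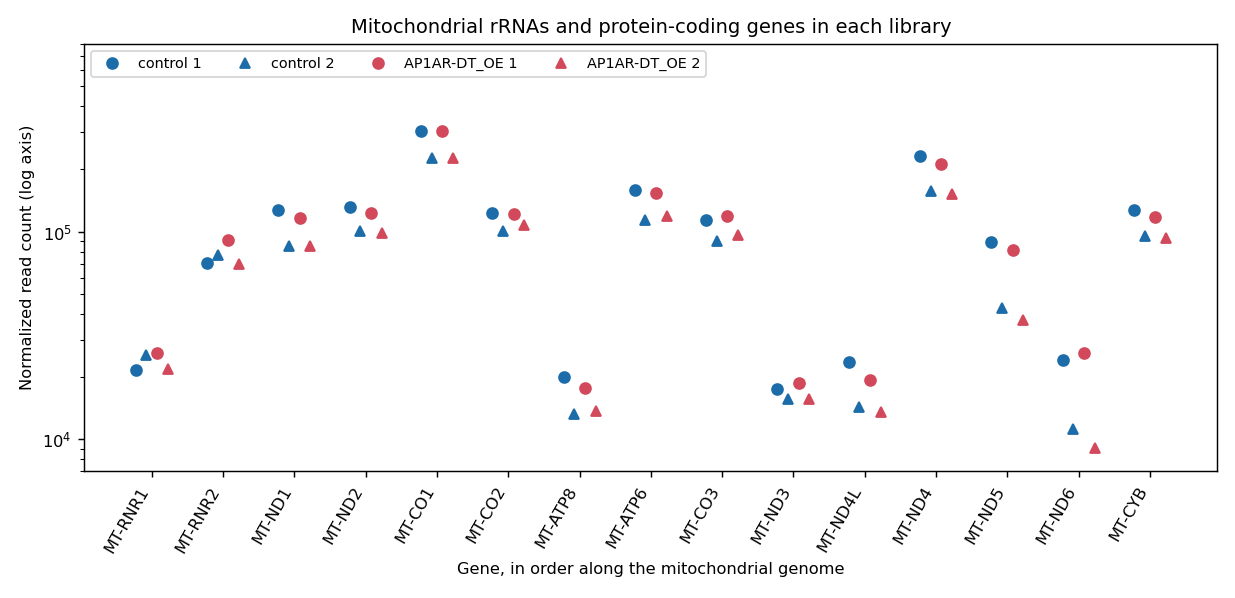
Normalized read count (log axis) of the 2 rRNAs and 13 protein-coding genes in order along the mitochondrial genome, with 1 point for each of the 4 libraries (circles replicate 1, triangles replicate 2). MT-CO1 is highest at 225501 to 305475, and the circles lie above the triangles of both groups for all 13 protein-coding genes but for neither rRNA.

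Of the rRNAs, MT-RNR2 (ENSG00000210082, chrM:1671-3229), the RNA of the large ribosomal subunit, had a length-scaled level of 2139 ± 324 and MT-RNR1 (ENSG00000211459, chrM:648-1601), that of the small subunit, one of 1077 ± 189. MT-RNR2 exceeded MT-RNR1 1.87- to 2.13-fold, although the pair is read from one precursor. MT-CO1 exceeded MT-RNR1 5.50- to 8.80-fold in these poly(A)-selected libraries.

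The tRNA genes spanned the widest range on the same scale, from MT-TY at 2130.3 ± 220.3 to MT-TW (tryptophan) at 33.1 ± 5.14, a ratio of 55.1 to 73.9 within a library. MT-TY and MT-TC (1957 ± 183) overlapped in range with each other and with MT-ND3. MT-TN (1386 ± 127) and MT-TS1 (1208 ± 85.7) came next and overlapped, followed by MT-TA (633 ± 62.6) and MT-TL1 (511 ± 60.5), which did not. These are the tRNAs whose sequences are given above. The next below them were MT-TG (glycine) at 386 ± 141 and MT-TE (glutamate) at 349 ± 142.

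Counts at a tRNA gene and its coding strand went together. The libraries do not mark strand, so these counts may hold reads from RNA of the opposite strand, and their part was not tested. The 8 tRNA genes of the minus strand held 72.9% to 79.4% of the tRNA counts of a library, and their median length-scaled level was 921 against 144 for the 14 of the plus strand. The strands overlapped in level, as MT-TP (proline, 128 ± 18.8) and MT-TQ (glutamine, 95.9 ± 21.99) of the minus strand lay among the lower plus-strand tRNAs. MT-TA, MT-TN, MT-TC, MT-TY and MT-TS1 alone held 66.2% to 74.97% of the tRNA counts. MT-TW lies in the same cluster as the first 4 of them but on the plus strand, and it was the lowest tRNA of all. The other end of the order was made of MT-TD (aspartate, 42.7 ± 13.5), MT-TM (methionine, 72.9 ± 17.04), MT-TK (lysine, 75.3 ± 5.34) and MT-TF (phenylalanine, 82.6 ± 14.4), all of the plus strand. A tRNA gene is 59 to 75 bases long, shorter than a read, so these levels depend on how the authors' counting shared out reads that ran into a neighbour, and the part of such reads was not tested.

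**Figure D2:**
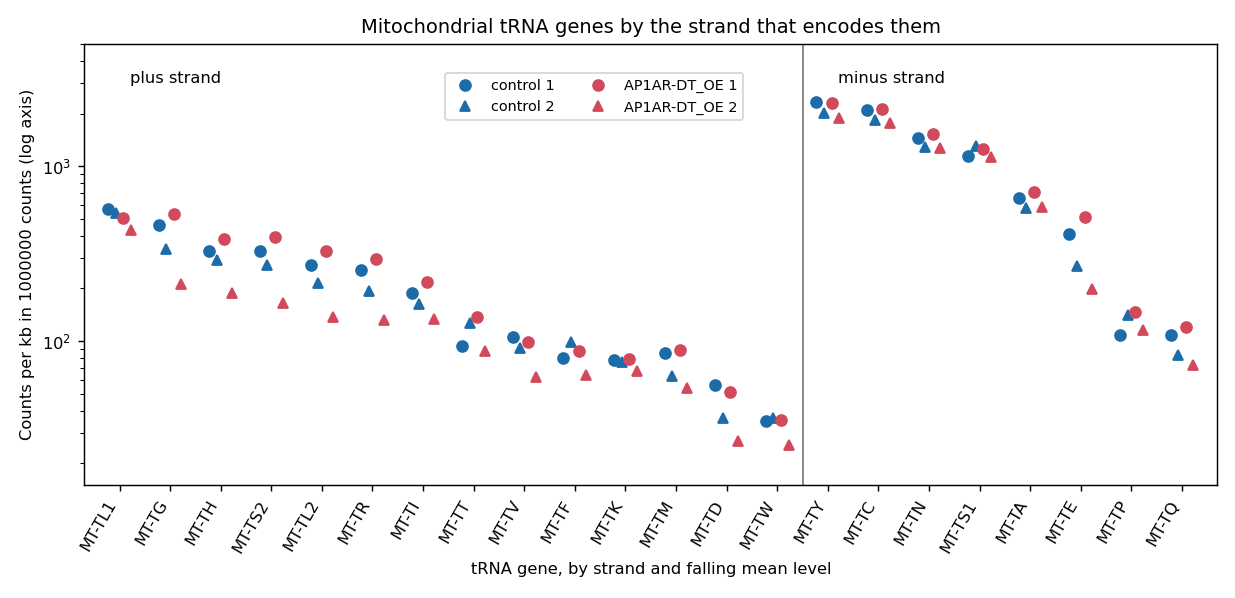
Length-scaled level (counts per kilobase in 1000000 counts, log axis) of the 22 mitochondrial tRNA genes in each of the 4 libraries, split by coding strand and ordered by falling mean. On the minus strand MT-TY is highest at 1879 to 2336, and on the plus strand MT-TL1 is highest at 429 to 571.

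No mitochondrial gene differed between AP1AR-DT_OE and control beyond the spread between libraries. With DESeq2, 0 of the 37 were called at an adjusted p under 0.05, where 0.137% of all 24014 genes were called, and the smallest adjusted p of a mitochondrial gene was 0.999973. At an unadjusted p under 0.05 the count was also 0 of 37, against 0.816% of all genes. The edgeR quasi-likelihood test also called 0 of the 37 and gave none an unadjusted p under 0.05, but it called 0 of 17027 genes in all. The AP1AR-DT_OE libraries were both above or both below the 2 controls for 0 of the 37, against 9.45% of the 13298 genes that averaged 50 or more normalized read counts. With counts scaled by library totals instead of size factors, it was so for 2 of the 37 (MT-ND2 and MT-TL1, both lower), against 10.8%. The fitted Log2FC ran from -0.27 (MT-TV, valine) to 0.12 (MT-RNR2), with a median of -0.036 beside -0.031 over all genes tested.

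In this fit, with 2 libraries in each group and no term for the replicate number, the intervals were wide. The narrowest 95% interval was that of MT-ND3, from -0.78 to 0.88 on the log2 scale, and the widest that of MT-TW, from -1.74 to 1.34. Differences within these bounds were not excluded in this fit, although the mitochondrial mRNAs had 9101 to 292503 counts each per library. The intervals are not adjusted for the number of genes, so they are not limits of detection for the calls. The called gene with the largest adjusted p (0.037) had an unadjusted p of 5.1e-05 (DESeq2). Differences larger than these bounds could therefore also go uncalled. The lowest tRNAs were also thinly counted, with 38 counts of MT-TW in AP1AR-DT_OE 2.

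**Figure D3:**
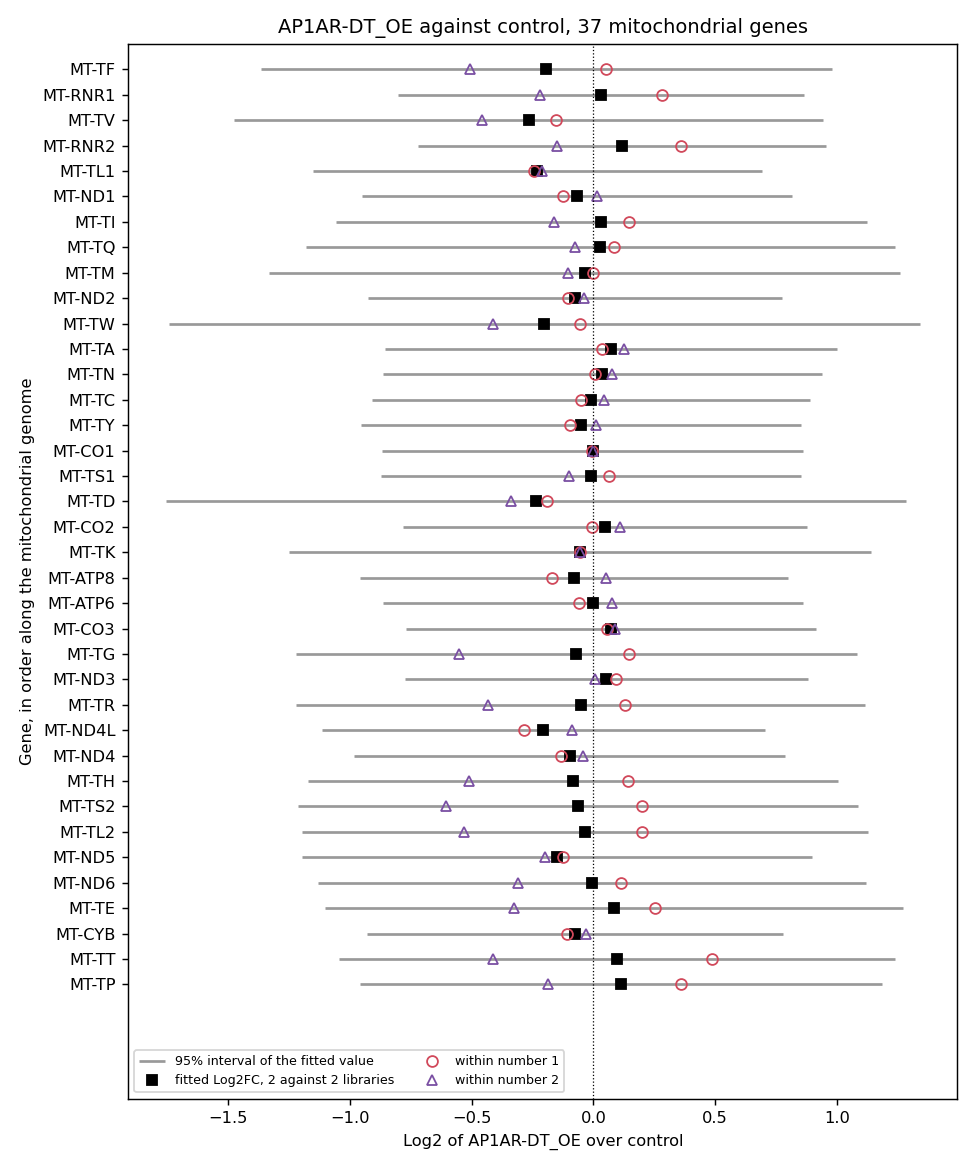
Log2 of AP1AR-DT_OE over control for each of the 37 genes in genome order: fitted value of 2 against 2 libraries (black squares) with its 95% interval (grey lines), and the ratio within replicate number 1 (circles) and 2 (triangles). Every interval crosses 0 and the fitted values lie between -0.27 and 0.12.

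The complex IV subunits were close between the groups. MT-CO1 had 305475 and 225633 normalized read counts in the controls against 304421 and 225501 in AP1AR-DT_OE. Each AP1AR-DT_OE library thus lay next to the control of the same number, and the Log2FC was -0.0032 (95% interval -0.87 to 0.86), with -0.0050 within number 1 and -0.00084 within number 2. MT-CO2 had 122384 and 100044 in the controls against 122054 and 107810.0 in AP1AR-DT_OE (Log2FC = 0.047, SE = 0.42). For MT-CO3 the values were 114062 and 90518 against 118537 and 96393 (Log2FC = 0.071, SE = 0.43), the largest positive value of the mRNAs. In all 3 subunits the groups overlapped.

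Of the 7 complex I subunits, 6 had a Log2FC below 0, and none passed the test. MT-ND4L had the largest difference of the protein-coding genes. It had 23502 and 14354 normalized read counts in the controls against 19301 and 13520.4 in AP1AR-DT_OE (Log2FC = -0.21, SE = 0.46). Each AP1AR-DT_OE library lay below the control of its number, but the first of them lay above control 2. For MT-ND4 the values were 231279 and 155875 against 210850.0 and 151226 (Log2FC = -0.097, SE = 0.45). MT-ND1 had 127337 and 84741 against 116761 and 85558 (Log2FC = -0.068), and MT-ND2 had 131724 and 100731 against 122524 and 98047 (Log2FC = -0.076). MT-ND3, which was at 17398 and 15573 in the controls against 18558 and 15653 in AP1AR-DT_OE, was the one subunit above 0 (Log2FC = 0.053).

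MT-ND5 and MT-ND6 varied more within the groups than between them. MT-ND5 had 88857 and 42913 normalized read counts in the controls against 81455 and 37353 in AP1AR-DT_OE (Log2FC = -0.15, SE = 0.53). MT-ND6 had 24050 and 11204 in the controls against 26049 and 9033 in AP1AR-DT_OE (Log2FC = -0.0070, SE = 0.57). For MT-ND6 both the highest and the lowest library were AP1AR-DT_OE, and the ratio of AP1AR-DT_OE over control was 0.12 within number 1 and -0.31 within number 2 (log2).

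MT-CYB and the ATP synthase subunits did not separate the groups either. MT-CYB had 127378 and 94699 normalized read counts in the controls against 118060 and 92629 in AP1AR-DT_OE (Log2FC = -0.076, SE = 0.44). MT-ATP6 was at 158968 and 113069 against 152485 and 119164 (Log2FC = -0.0021, SE = 0.44). For MT-ATP8 the values were 19874 and 13241 against 17641 and 13720 (Log2FC = -0.078, SE = 0.45). In each of the 3 genes the 2 libraries numbered 1 lay above the 2 numbered 2, whatever the group.

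In both rRNAs AP1AR-DT_OE lay above control in number 1 and below it in number 2, as it also did in MT-ND6 and several tRNAs. MT-RNR1 had 21481 and 25363 normalized read counts in the controls against 26095 and 21808 in AP1AR-DT_OE (Log2FC = 0.032, SE = 0.43). MT-RNR2 had 70749 and 77375 in the controls against 90864 and 69847 in AP1AR-DT_OE (Log2FC = 0.12, SE = 0.43). Within number 1 the log2 ratio of AP1AR-DT_OE over control was 0.28 for MT-RNR1 and 0.36 for MT-RNR2, and within number 2 it was -0.22 and -0.15. AP1AR-DT_OE 1 was the highest library and the groups overlapped in both genes.

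The most counted tRNAs did not separate the groups. MT-TY had 4061 and 2684 normalized read counts in the controls against 3799.6 and 2707 in AP1AR-DT_OE (Log2FC = -0.052, SE = 0.46). MT-TC was at 3647 and 2461 against 3524 and 2534 (Log2FC = -0.012), and MT-TN at 2790.4 and 1911 against 2806 and 2015 (Log2FC = 0.036). MT-TA was at 1200.4 and 807 against 1229 and 881 (Log2FC = 0.072). In these 4, and in MT-TS1 and MT-TL1 given next, the libraries numbered 1 lay above those numbered 2, as in MT-CO1. MT-TS1 had 2084 and 1816 in the controls against 2177 and 1694 in AP1AR-DT_OE (Log2FC = -0.011, SE = 0.44). MT-TL1, the tRNA that follows the rRNAs, had 1128 and 815 in the controls against 953 and 703 in AP1AR-DT_OE (Log2FC = -0.23, SE = 0.47). Its unadjusted p of 0.62 (DESeq2) was the smallest of the 37 genes. Its ratio was close in both numbers, at -0.24 and -0.21.

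The other tRNAs were further down in counts, and their Log2FC lay between -0.27 (MT-TV) and 0.11 (MT-TP) with SE up to 0.79. MT-TV had 191 and 128 normalized read counts in the controls against 172 and 93.3 in AP1AR-DT_OE. MT-TT (threonine), with 163 and 169 against 228 and 127, had the highest ratio of AP1AR-DT_OE over control within a number, at 0.49 in number 1, and was at -0.41 in number 2. In number 2, all 14 plus-strand tRNAs had a ratio of AP1AR-DT_OE over control below 0, down to -0.61 (MT-TS2, serine), whereas in number 1 8 of the 14 were above 0. Of the 8 minus-strand tRNAs, 4 were above 0 in number 2 and 6 in number 1. The ratio in number 2 was higher for genes of higher GC content both over all 13284 genes (Spearman's rho = 0.62) and over the 37 mitochondrial genes (rho = 0.50), and the part of GC content in the tRNA ratios was not tested. With 1 library per group in each number, these ratios have no test.

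The mitochondrial genome took a like share of the counts in both groups, 6.09% and 5.84% in the controls against 6.24% and 5.36% in AP1AR-DT_OE. The means were 5.96% ± 0.179 (SD, n = 2) and 5.80% ± 0.619 (SD, n = 2), a difference of -0.164 percentage points (exact permutation test, two-sided, p = 1). With 2 against 2 libraries this test cannot give a p under 0.333. A single library decided the sign of this difference: it was 0.274 without AP1AR-DT_OE 2 and -0.602 without AP1AR-DT_OE 1, and -0.0376 and -0.290 without control 1 and control 2. The Wilson 95% interval of each share reached at most 0.0099 percentage points to either side, which covers counting error only and treats the counts as single reads.

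The classes divided this share very unequally. Protein-coding genes took 5.66% and 5.26% of all counts in the controls against 5.69% and 4.88% in AP1AR-DT_OE. The rRNAs took 0.350% and 0.509% against 0.466% and 0.420%, and the tRNAs 0.0768% and 0.0688% against 0.0814% and 0.0601%. The groups overlapped in each class (exact permutation p = 1 in all 3). Control 1 was the library with the lowest rRNA share and AP1AR-DT_OE 2 the one with the lowest mRNA and tRNA shares.

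**Figure D4:**
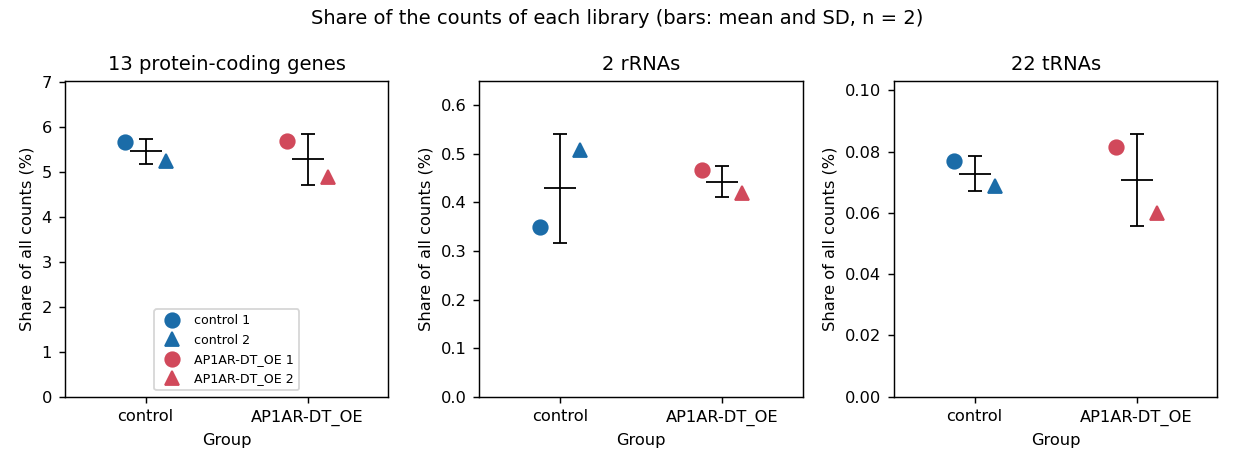
Share of all counts of a library (%) in the 13 protein-coding genes, the 2 rRNAs and the 22 tRNAs, with 1 point per library and the mean and SD of each group (n = 2). Each panel starts at 0; the protein-coding share runs from 4.88% to 5.69%, the rRNA share from 0.350% to 0.509% and the tRNA share from 0.0601% to 0.0814%.

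By enzyme, the complex I subunits took 2.44% and 2.11% of all counts in the controls against 2.37% and 1.88% in AP1AR-DT_OE (exact permutation p = 0.667). The 3 complex IV subunits took 2.06% in each control and 2.17% and 1.97% in AP1AR-DT_OE (exact permutation p = 1). The complex III subunit MT-CYB took 0.483% and 0.469% against 0.470% and 0.424%, and the ATP synthase subunits 0.679% and 0.625% against 0.678% and 0.609% (exact permutation p = 0.667 for both).

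Ratios within the mitochondrial RNA are free of the scaling of the library. The log2 ratio of rRNA over protein-coding counts was -4.02 and -3.37 in the controls against -3.61 and -3.54 in AP1AR-DT_OE. The controls thus enclosed both AP1AR-DT_OE libraries (difference 0.12, exact permutation p = 1). Without control 1 the difference was -0.20, and without control 2 it was 0.44. The ratio of tRNA over protein-coding counts was much steadier, at -6.20 and -6.26 against -6.13 and -6.34 (difference -0.0053, exact permutation p = 1, from -0.11 without AP1AR-DT_OE 1 to 0.10 without AP1AR-DT_OE 2). The ratio of counts at MT-ND6 over those at the other protein-coding genes was -5.93 and -6.55 against -5.75 and -6.87 (difference -0.068, exact permutation p = 1, from -0.63 without AP1AR-DT_OE 1 to 0.49 without AP1AR-DT_OE 2). Reads from RNA of the strand opposite to MT-ND6 could not be kept apart in this ratio. MT-ND5 over MT-ND4, neighbours on one precursor, gave -1.38 and -1.86 against -1.37 and -2.02, so that both replicate 1 libraries lay above both replicate 2 libraries (exact permutation p = 1). In 2 other ratios AP1AR-DT_OE was above control within each number. Like MT-ND5 over MT-ND4, these 2 were not among the planned ratios. MT-RNR2 over MT-RNR1 was 1.72 and 1.61 in the controls against 1.80 and 1.68 in AP1AR-DT_OE (exact permutation p = 0.667). MT-CO3 over MT-CO1 was -1.42 and -1.32 against -1.36 and -1.23 (exact permutation p = 0.667).

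The replicate number separated the libraries for more mitochondrial genes than the group did, and how many depended on the scaling. Both libraries numbered 1 lay above both numbered 2 in normalized read count for 34 of the 37 genes, against 41.6% of the 13298 genes averaging 50 or more. These were all 13 protein-coding genes and 21 of the 22 tRNAs, with MT-TT as the exception, and neither rRNA. With counts scaled by library totals, a setting chosen after seeing the data, 25 of the 37 were separated in this way (9 mRNAs and 16 tRNAs), against 26.8% of the 13298 genes. MT-ND2, MT-ND3 and MT-CO3 then overlapped, and MT-CO2 was higher in the libraries numbered 2. The median log2 ratio of replicate 2 over replicate 1 was -0.57 in control and -0.49 in AP1AR-DT_OE, against -0.052 and -0.032 over the 13298 genes. On library totals it was smaller, at -0.19 and -0.29, against 0.33 and 0.17 over the 13298 genes. Whether a number marks a culture, a day or a sequencing run is not given in the labels, and its part in these values was not tested.

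The size of this gap, given here on size-factor-normalized counts, depended on the gene. It was alike in the groups among the protein-coding genes (median -0.49 in control and -0.36 in AP1AR-DT_OE), but not among the rRNAs (0.18 and -0.32) and less so among the tRNAs (-0.58 and -0.86). Among the protein-coding genes it was smallest for MT-ND3 in control (-0.16, and -0.25 in AP1AR-DT_OE) and for MT-CO2 in AP1AR-DT_OE (-0.18, and -0.29 in control). It was largest in both groups for MT-ND6 (-1.10 in control and -1.53 in AP1AR-DT_OE) and next for MT-ND5 (-1.05 and -1.12). As a share of the protein-coding counts, MT-ND5 was 5.95% and 4.04% in the controls against 5.70% and 3.51% in AP1AR-DT_OE, and MT-ND6 was 1.61% and 1.05% against 1.82% and 0.848%. MT-CO2, by contrast, was 8.20% and 9.42% against 8.54% and 10.1%, so that its share was the higher in the libraries numbered 2. Across the 13 protein-coding genes the control and AP1AR-DT_OE gaps were correlated at Pearson's r = 0.92 and Spearman's rho = 0.96, and across the 22 tRNAs at r = 0.60 and rho = 0.74. Genes are not independent replicates, and all points of a group share the same pair of libraries.

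In AP1AR-DT_OE the widest gaps lay in one stretch of the genome, from MT-TG to MT-TE. There the 7 widest were those of MT-TE (-1.58), MT-ND6, MT-TG, MT-TL2 (leucine), MT-TS2, MT-TR (arginine) and MT-TH (histidine), while MT-ND3, MT-ND4L and MT-ND4 of the same stretch had gaps of -0.25 to -0.51. In control the stretch stood out less. MT-ND6, MT-ND5 and MT-TE were widest there too, and MT-TG (-0.83), MT-TR (-0.80) and MT-TL2 (-0.73) were also wide. MT-TH (-0.57) and MT-TS2 (-0.64), however, lay near the median of the 37 genes. MT-TD, MT-TM and MT-TQ, which lie elsewhere, had gaps of -0.999, -0.82 and -0.77. MT-TE, next to MT-ND6 on the minus strand, had 749 and 375 normalized read counts in the controls against 893 and 299 in AP1AR-DT_OE. MT-TG had 823 and 464 against 910.4 and 317. Outside the stretch, MT-TD had 100.2 and 50.1 against 87.8 and 39.7, and its gap was wide in both groups. MT-CYB, which follows MT-TE, was at -0.43 and -0.35. These genes were singled out after their values were seen.

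**Figure D5:**
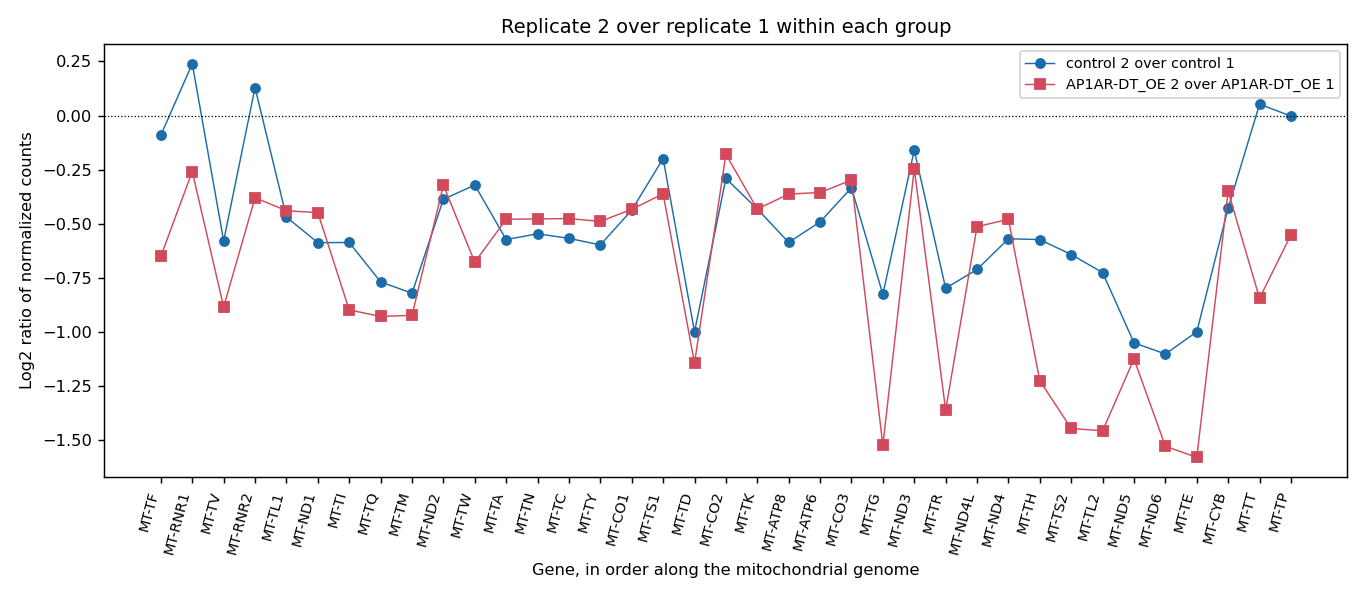
Log2 ratio of normalized read counts of replicate 2 over replicate 1 in control (circles) and in AP1AR-DT_OE (squares) for the 37 genes in genome order. Most values lie below 0, the rRNAs of control lie above it at 0.24 and 0.13, and MT-ND6 reaches -1.10 in control and -1.53 in AP1AR-DT_OE.

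For the ratio of replicate 2 over replicate 1, GC content did not order the mitochondrial genes as it did the genes of the whole table. The 37 genes ran from 23.1% GC (MT-TR) to 49.3% (MT-TS1), and the ratio of replicate 2 over replicate 1 had Spearman's rho with GC of 0.13 in control and 0.43 in AP1AR-DT_OE, opposite in sign to the values over all genes given above. For the ratio of AP1AR-DT_OE over control the signs were the same, with rho = -0.18 over the mitochondrial and -0.34 over all genes in number 1, and 0.50 and 0.62 in number 2. The points of each rho share a pair of libraries. RNAs that lack a poly(A) tail, listed as a sign of how tightly poly(A) RNA was selected, had a summed level of 64.9 and 88.7 normalized read counts in the controls against 88.8 and 127 in AP1AR-DT_OE. Of the 8 listed, 5 were measured, 3 of these had at most 12 counts in every library, and RN7SK, the RNA that holds back the elongation factor P-TEFb, had 25 and 74 against 40 and 87 counts. Within each group the sum was higher in replicate 2, but without RN7SK the other 4 summed to 36.4 and 31.6 in the controls against 44.97 and 40.7 in AP1AR-DT_OE, lower in replicate 2. The part of these RNAs in the mitochondrial values was not tested.

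Nuclear genes that act on mitochondrial RNA were read beside the mitochondrial genes, and 0 of the 52 measured were called or had an unadjusted p under 0.05 (DESeq2), where 0.137% and 0.816% of all genes did, while edgeR called 0 genes of the whole table. Their median Log2FC was -0.016, beside -0.031 over all genes tested. The transcription and replication list (16 of 16 measured, median -0.16) ran from -0.56 to 0.19. Its largest values were those of TEFM, the mitochondrial elongation factor, with 26 and 202 counts in the controls against 32 and 92 in AP1AR-DT_OE (Log2FC = -0.56, SE = 0.87), and of MGME1, a mitochondrial exonuclease (Log2FC = -0.43, SE = 0.60). For TEFM the libraries numbered 2 were the higher in both groups, the reverse of the mitochondrial mRNAs. Both libraries numbered 2 lay above both numbered 1 for 10 of the 16 genes of this list and for 30 of the 52 nuclear genes. The libraries numbered 1 lay above for 14 of the 52, against 41.6% of the 13298 genes averaging 50 or more normalized read counts.

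In the processing and stability list (22 of 22 measured, median -0.016), ELAC2, which cuts the 3′ ends of tRNAs, had a Log2FC of 0.16 (SE = 0.44). KIAA0391, the former symbol of PRORP, which cuts their 5′ ends, had 11.4 and 120.3 normalized read counts in the controls against 9.87 and 679.9 in AP1AR-DT_OE (Log2FC = 2.39, SE = 2.28). That value came from number 2 alone, where the log2 ratio was 2.50, against -0.21 in number 1. Of the list of rRNA and tRNA modification (14 of 15 measured, median 0.049), TRMT61B, a methyltransferase of tRNA and rRNA, had a Log2FC of 0.23 (SE = 0.66) and TRMU, which thiolates tRNAs, of 0.22 (SE = 0.44).

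Copies of mitochondrial DNA in the nuclear genome can draw reads away from the mitochondrial genes or lend reads to them. The 16 copies in the table held 142 and 151 counts in the controls against 126 and 107 in AP1AR-DT_OE, which was 0.0101% and 0.00988% of the mitochondrial counts against 0.00883% and 0.00907%. Of these, 13 had at most 12 counts in every library, and none was called (DESeq2). The 3 above this level were MTND4P12 with 73 and 62 against 52 and 41 counts, MTND2P28 with 30 and 38 against 30 and 30, and MTATP6P1 with 33 and 34 against 22 and 22. MTND1P23, the fourth by mean, was listed at 0 in both controls and had 8 and 5 counts in AP1AR-DT_OE, about 1 or 2 read pairs.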

How the data were processed

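Counts per gene of 4 poly(A)-selected RNA-seq libraries were analysed, 2 control and 2 AP1AR-DT_OE, grouped by title. Per the paper's methods, the authors aligned the reads to hg19 with HISAT2 and ran StringTie, whose Python script turns coverage into the deposited whole-number counts, with no normalization. The submitters' processing notes name other tools (TopHat2 2.0.4, SAMtools, HTSeq, Cuffdiff and edgeR 2.6.12), so the route is uncertain. Low values pile up at 4 (3287 entries, against 2136 at 3 and 1509 at 5), so a read pair may have been worth about 4 counts. This was not tested against the reads. Genes shorter than a read would be affected most by such a conversion of coverage into counts. The deposited table also holds the authors' DESeq2 and edgeR fold changes and p-values, which were not used.

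All 24014 genes were fitted with DESeq2 1.42.0 in R 4.3.3 (median-of-ratios size factors, Wald test, Benjamini-Hochberg adjustment with default independent filtering, two-sided) and called at an adjusted p under 0.05. A normalized read count is the count over the size factor of its library, 95% intervals are the fitted value ± 1.96 SE, and log2 ratios between 2 libraries were taken on normalized read counts. Single values per library were compared by exact permutation tests (scipy 1.17.1). Alternatives were edgeR 4.0.16, other scalings and filters, the replicate block, summed overlapping genes and leaving out each library. Libraries held 21988065 to 26184599 counts. The fits were tested on simulated data.

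The members and the gene lists were chosen with earlier results of these data known. Named were AP1AR-DT, all mitochondrial mRNAs and rRNAs, the 6 tRNAs highest in mean normalized read count, the called genes of the nuclear lists and, in each list, the 2 with the largest absolute Log2FC at a mean of at least 50, and the 4 highest nuclear copies. Other tRNAs were named after their values were seen. Sequences were read from chrM of GRCh37 as distributed by GENCODE.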

Additional observations from a re-analysis of the deposited data

How the results depend on the processing

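No mitochondrial gene was called, or had an unadjusted p under 0.05, under any of the 15 alternatives run. Leaving out 1 library turned the sign of the group difference in the share of all counts for the mitochondrial genes together (-0.60 to 0.27 percentage points), the mRNAs (-0.58 to 0.23), the rRNAs (-0.066 to 0.093) and the tRNAs (-0.013 to 0.0086). The other denominators and gene sets kept the sign of the first of these. Over all genes, 33 were called as reported, 0 with edgeR (where 112 had an unadjusted p under 0.05), and, in settings chosen after seeing the data, 55 with a GC correction, 60 with the GC correction and the replicate block together, 15 with counts divided by 4, and 44 with edgeR and the replicate block (437 at an unadjusted p under 0.05). Leaving out 1 library gave 45 to 90 calls (90 without control 1, 75 without control 2, 50 without AP1AR-DT_OE 2), where the lone library of a group is assumed to vary like the other group.

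Signs near 0 were not stable. MT-ATP6 was at 0.0078 with the replicate block, 0.00087 with edgeR and the block, and 0.040 with the GC correction and the block, where MT-CO1 was at 0.0075, MT-ATP8 at 0.013, MT-TY at 0.011 and MT-TC at 0.015. Leaving out 1 library turned the sign of each of the 21 mitochondrial genes named by rule. The Log2FC then ran from -0.11 to 0.17 for MT-RNR1, -0.090 to 0.28 for MT-RNR2, -0.32 to 0.26 for MT-ND1, -0.25 to 0.13 for MT-ND2, -0.24 to 0.23 for MT-CO1, -0.080 to 0.20 for MT-CO2, -0.33 to 0.24 for MT-ATP8, -0.22 to 0.26 for MT-ATP6, -0.091 to 0.25 for MT-CO3, -0.080 to 0.16 for MT-ND3, -0.51 to 0.19 for MT-ND4L, -0.36 to 0.22 for MT-ND4, -0.82 to 0.47 for MT-ND5, -0.97 to 0.65 for MT-ND6, -0.27 to 0.15 for MT-CYB, -0.32 to 0.28 for MT-TY, -0.27 to 0.30 for MT-TC, -0.23 to 0.34 for MT-TN, -0.21 to 0.15 for MT-TS1, -0.19 to 0.39 for MT-TA and -0.47 to 0.023 for MT-TL1. The cause was not tested.

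The groups share replicate numbers, but with only 2 pairs and no label that ties a number to a batch, the block was kept as an alternative. Deviations from the group means of same-numbered libraries were correlated at r = 0.41 over 16730 genes and 0.65 over the 37 mitochondrial genes. With the block 37 genes were called in all, 16 of them among the 33, and 0 of the 37 mitochondrial genes. The smallest unadjusted p of a mitochondrial gene was then 0.33 (DESeq2, MT-ND4L), and the 95% intervals narrowed to -0.36 to 0.35 for MT-CO1 and -0.49 to 0.29 for MT-ND6.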
